A study of Mus musculus with 12 samples.

Results

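Ntrk2 and Chrna4 are a pair of receptor genes best known from neurons, selected on their normalized counts per liver, which were far lower in Lcorl knockout (KO) mice than in wild-type (WT) mice. They are 2 of the 17714 gene rows of the deposited table and 2 of the 13569 with a mean of at least 10 normalized counts. Because the KO to WT difference chose them, it is described below with no test, and tests are kept to other genes and to variation among livers of one genotype.

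Total RNA was sequenced from whole livers of 12 female mice aged 3 weeks, 6 KO with a global deletion of Lcorl, which encodes a nuclear relative of the ligand dependent corepressor, and 6 WT. The libraries carry 12 different animal numbers, so p-values measure the spread between these animals. The sources used here do not give the strain, the litters or how the allele was made. A normalized count is a gene's reads divided by one factor per library, which the authors computed. Reads counted in the gene rows totalled 21769795 to 28655120 in the WT libraries and 27692285 to 31296485 in the KO libraries. Library reads and depth below mean these totals, since the number of reads sequenced is not in the sources used here. Lcorl itself held at least 199 reads in every WT library, and in KO it held 3 reads in KO 5 and 0 in the other 5 livers. Of the 13569 genes tested with limma on log2(normalized count + 1), 601 had an adjusted p under 0.05 (percent called: 4.43), 237 of them higher in KO (1.75%) and 364 lower (2.68%). The median log2 difference over all tested genes was 0.0075.

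Ntrk2 encodes TrkB, a receptor tyrosine kinase that binds brain-derived neurotrophic factor and signals through adaptors to the Ras, phosphoinositide and phospholipase C pathways; the gene also makes truncated receptors that lack the kinase. Chrna4 encodes an alpha subunit of nicotinic acetylcholine receptors, ion channels that open when acetylcholine binds and that in the brain are mostly built from this subunit and the beta subunit of Chrnb2. The liver receives autonomic nerves, but nerve cell bodies lie outside it.

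Ntrk2 lies on the plus strand of chromosome 13 from 58806569 to 59133970 (GRCm38, GENCODE M21), with 10 annotated transcripts and 19292 bases of exon. Inside its span 4 further genes are annotated, none shares an exonic base with it, and none has a row used here. Chrna4 lies on the minus strand of chromosome 2 from 181018380 to 181043546, with 5 transcripts and 5022 bases of exon, and no annotated gene overlaps it. The bases before each start site are shown because both genes were low in the same livers. They come from RefSeq on GRCm38.p6, where both genes had an entry, and are given 5′ to 3′ on the gene's own strand up to the first annotated exon. The Ntrk2 stretch is chr13:58806319-58806471 and the Chrna4 stretch is chr2:181039306-181039427, upstream of a RefSeq start that lies inside the longer GENCODE gene. Capitals mark a GC box (GGGCGG, here on the opposite strand).
Ntrk2: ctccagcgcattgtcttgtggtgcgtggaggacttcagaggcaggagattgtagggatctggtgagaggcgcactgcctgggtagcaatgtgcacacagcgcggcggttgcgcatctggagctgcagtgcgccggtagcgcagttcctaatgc
Chrna4: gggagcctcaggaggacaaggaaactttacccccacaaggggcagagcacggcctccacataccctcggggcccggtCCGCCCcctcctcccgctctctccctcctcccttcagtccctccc

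Both promoters were above the median of all promoters in G, C and CpG. For these the promoters of tested genes alone were not compared. Over the full windows of 300 bases, GC content was 61.3% for Ntrk2 and 74.3% for Chrna4, against a median of 52.7% over 32851 promoters. The windows held 23 and 33 CpG pairs against a median of 7, and 78.5% and 91.4% of promoters had fewer. On both strands of these windows GGGCGG matched once for Ntrk2, past the start site, and 3 times for Chrna4. It is held by 35.7% of all promoters and by 60.2% of the 12922 promoters of tested genes. The letters CACGTG (an E-box, in 7.15% of promoters), CCAAT (37.4%), TATAAA (13.6%), and TTCNNNGAA (a STAT-type site, 8.30%) were in neither window. Neither were 1 sterol regulatory element (in 0.0913% of promoters), a nuclear receptor direct repeat and a glucocorticoid-type site, each searched as a single consensus. A match is a description of letters, and its absence says nothing of binding outside the window.

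Ntrk2 was present in every WT liver and low, but detected, in every KO liver. In WT livers 1 to 6 it measured 418.6, 538.3, 749.2, 1147, 1178 and 501.4 normalized counts. In KO livers 1 to 6 it measured 20.7, 11.9, 91.0, 50.1, 142 and 46.6. WT 4 and WT 5 were the highest, KO 5 was the highest KO liver, and the groups did not overlap. Among all tested genes, 225 did not overlap between genotypes with KO lower (1.66%), 176 with KO higher (1.3%) and 401 in either direction (2.96%), and since the fall chose Ntrk2 nothing is read from its place among them. The mean was 755 ± 334 over the 6 WT livers and 60.4 ± 48.7 over the 6 KO livers (SD), a ratio of 12.5, and the log2 difference was −3.94 (SE 0.512), a 15.3-fold lower level in KO on the log2(normalized count + 1) scale. The KO libraries together held 393 Ntrk2 reads and the WT libraries 4312. Per read counted in the gene rows that is 8.17% of the WT level. Its exact 95% binomial limits were 7.35 and 9.06%, which hold for counting error alone.

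Chrna4 was lower still in KO and far less even among the WT livers. In WT livers 1 to 6 it measured 236.3, 225.4, 138.5, 754.4, 297.5 and 20.0 normalized counts. In KO livers 1 to 6 it measured 0, 2.97, 18.7, 0, 6.59 and 17.4. WT 4 stood highest and WT 6 lowest among WT, and WT 6 lay just above KO 3 and KO 6. In reads the order of those livers was not kept, with 21 reads in WT 6, 22 in KO 3 and 19 in KO 6. KO 1 and KO 4 had no read, which allows up to 3.11 and 2.89 normalized counts (3 reads). The mean was 279 ± 252 over the WT livers and 7.60 ± 8.44 over the KO livers (SD), a ratio of 36.7, and the log2 difference was −5.27 (SE 0.926), or 38.5-fold. With a pseudocount of 10 in place of 1 that difference was −3.63, so its size depends on how the livers near 0 are scored. The KO libraries together held 51 reads against 1493 in WT, which is 3.06% of WT per read counted in the gene rows (exact binomial limits 2.27 and 4.05%).

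**Figure D1:**
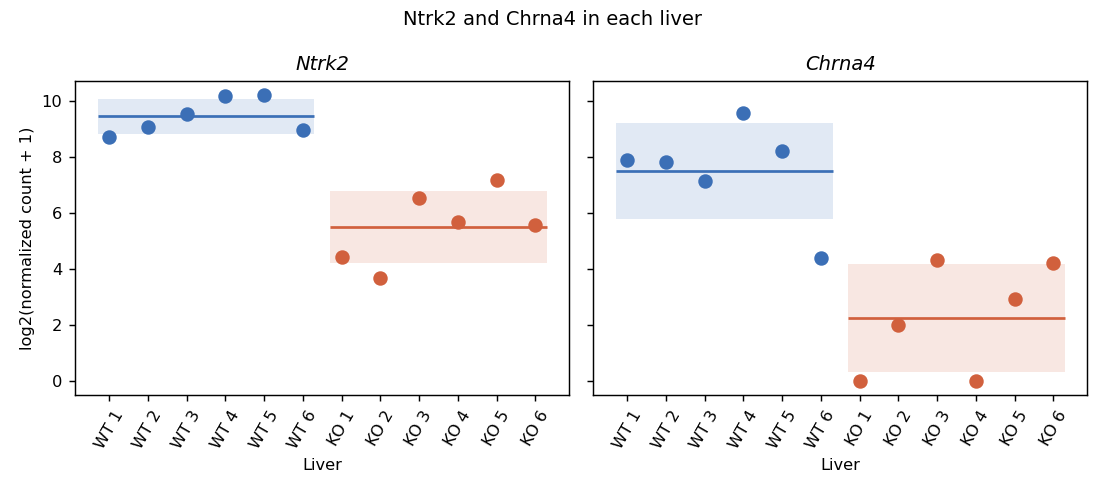
Level of Ntrk2 (left) and Chrna4 (right) in each of the 12 livers, as log2(normalized count + 1); points are livers, lines the genotype means and shaded bands 1 SD to each side. Ntrk2 separates the genotypes with a gap, while Chrna4 in WT 6 (20.0 normalized counts) lies next to KO 3 (18.7) and KO 6 (17.4).

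The order of falls sets both genes among liver genes of other kinds. Of 11084 genes with named symbols and means of 50 or more, Ntrk2 had the 11th largest fall, after Hamp2 (log2 difference −3.95), a gene of the hepcidin family of iron hormones, and before Acacb (−3.11), an acetyl-CoA carboxylase. Chrna4 had the 5th, after Thrsp (−5.40), a lipogenesis-associated nuclear protein, and before Scd1 (−4.67), a fatty acid desaturase. The authors' deposited table gives a log2 fold change of −3.47 for Ntrk2 and −0.043 for Chrna4. The Chrna4 value there is far smaller in size than the difference between its group means, and the sources used here do not name the step that made it.

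Animal numbers in the labels fall into 4 runs of neighbours, and 3 of them hold both genotypes; the labels do not say what a run shares. Ntrk2 was 19.3-fold lower in KO in the first run (KO 1, WT 1), 29.2-fold in the third (KO 2, KO 3, KO 4, WT 4) and 9.32-fold in the fourth (KO 5, KO 6, WT 5, WT 6). Chrna4 was 6.71-fold lower in the fourth run, where WT 6 lay. In the first it was listed at 236 in WT 1 and 0 in KO 1. In the third it measured 754 in WT 4 and 2.97, 18.7 and 0 in KO 2, KO 3 and KO 4. No fold is given for these runs, since its size would rest on how a count of 0 is scored. In each run with both genotypes every KO liver was below every WT liver for both genes. This had to be so, since neither gene overlapped between genotypes over all livers, and it is no separate result. Leaving out any 1 liver moved the log2 difference of Ntrk2 between −4.27 and −3.57 and that of Chrna4 between −5.89 (without WT 6) and −4.82 (without KO 1 or without KO 4). Without WT 6 and KO 2 together the differences were −3.67 and −5.84; these 2 livers were left out because each held RNA of genes that were at or near 0 in the other livers. In WT 6 these were the fat cell genes Adipoq (53.4 normalized counts, at most 0.976 elsewhere) and Cfd (101, at most 2.07 elsewhere), and in KO 2 the pancreatic gene Reg1 (126, 0 elsewhere). Of 10 exocrine pancreas markers listed, Cpa1, Prss2, Pnlip, Cpb1 and Clps were 0 in every liver or had no row used here. The sum of the others in KO 2 (468) lay within the WT range (320 to 558). It was the highest among KO livers, the others lying between 173 and 268. Whether KO 2 held pancreas tissue was not tested. Of the 6 adipose markers only 1 had a mean of at least 10. Their sum was lowest among WT livers in WT 6 (320) and highest in WT 4 (1441), where Adipoq and Cfd were 0. The sum therefore does not track Adipoq or Cfd, and nothing is read from it. The part of fat cell RNA in the level of Chrna4 in WT 6 was not tested.

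Variation among WT livers was not used to choose the genes, and both varied more than most. Over 11520 genes the SD of log2(normalized count + 1) among the 6 WT livers had a median of 0.166. Ntrk2 had an SD of 0.633, rank 285, with 97.5% of genes lower. Chrna4 had an SD of 1.72, rank 18, with 99.8% lower. The highest WT liver exceeded the lowest 2.82-fold for Ntrk2 and 37.7-fold for Chrna4, or 5.45-fold for Chrna4 counted from its second lowest WT liver, WT 3. Both ranks describe the genes and carry no test.

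The relation of Ntrk2 with Chrna4 did not pass an exact test in either genotype. Across the 6 WT livers, Pearson's r on the log2 scale was 0.56 (exact permutation p = 0.279) and Spearman's rho was 0.54 (exact permutation p = 0.297). Without WT 4 and WT 5, the livers farthest from the Ntrk2 median, r was 0.003. Across the 6 KO livers r was 0.47 (exact permutation p = 0.347) and rho 0.43 (exact permutation p = 0.389), and r was 0.68 without KO 2 and KO 5. After Benjamini-Hochberg adjustment over both genotypes the p for r was 0.347 in each.

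Levels per kilobase of exon place the genes within their families. In WT, Ntrk2 had 39.2 ± 17.3 normalized counts per kilobase (SD, n = 6; 21.7 to 61.1), rank 20 of 48 receptor tyrosine kinase genes. Fgfr2, a fibroblast growth factor receptor one rank above, had 87.8 ± 11.2 with a range that did not meet that of Ntrk2, while Kit, the stem cell factor receptor one rank below, had 31.8 ± 5.31 with a range inside it. The leading kinase was Csf1r, the receptor of colony stimulating factor on macrophages, at 551 per kilobase. In KO, Ntrk2 had 3.13 ± 2.5 and rank 37. Its exon length covers all 10 transcripts, so a level carried by 1 short transcript would be understated. Chrna4 in WT had 55.5 ± 50.2 per kilobase (4.0 to 150), rank 2 of 34 ligand-gated channel genes. It stood below the ATP-gated channel gene P2rx4 (157 ± 10.6, 146 to 172), which only WT 4 reached, and beside the kainate receptor gene Grik5 (52.5 ± 9.2), whose range lay within it. In KO it had 1.51 ± 1.7 and rank 13.

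**Figure D2:**
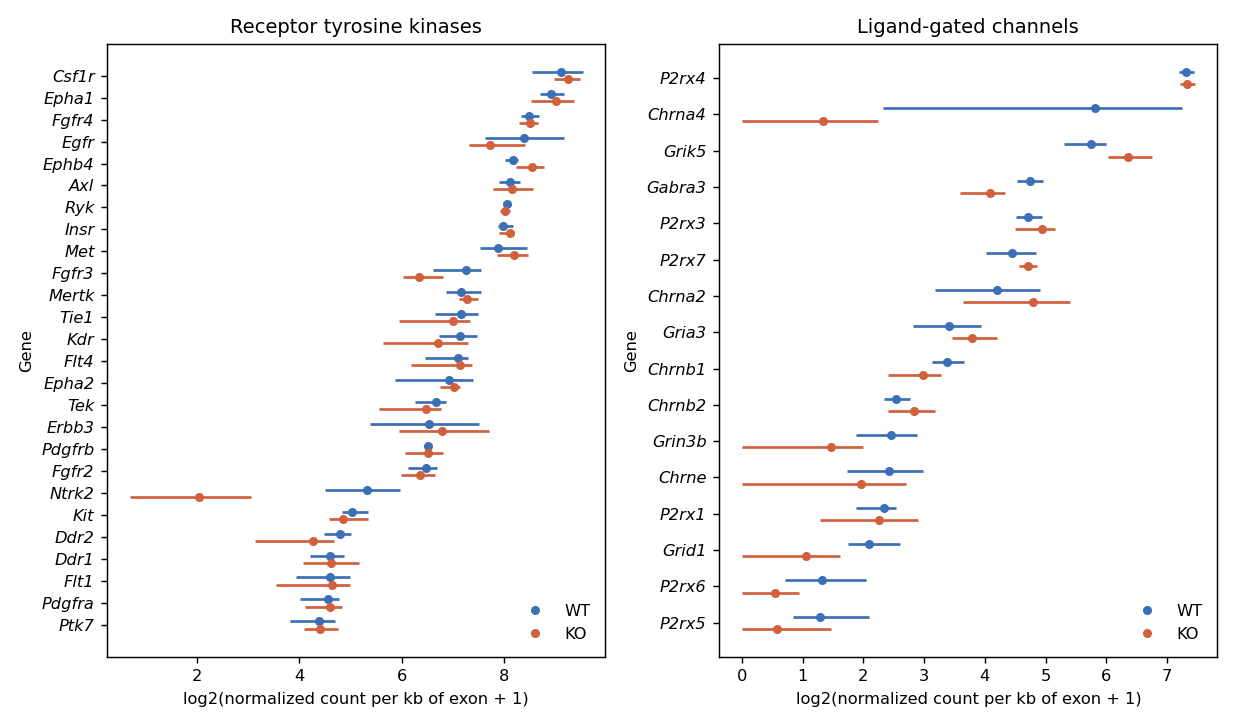
Level per kilobase of exon, as log2(normalized count per kilobase + 1), for the leading receptor tyrosine kinase genes (left) and ligand-gated channel genes (right) in WT and KO; points are group means and lines span the lowest to the highest of 6 livers. Ntrk2 stood at rank 20 in WT, and Chrna4, rank 2, had the widest WT range of the channels shown.

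Ligands that act on Trk receptors were measured at low levels. Ntf3, which encodes neurotrophin 3, the main ligand of TrkC, lay in WT between 7.65 and 32.4 normalized counts (median 14.1) and in KO between 31.7 and 77.3 (median 48.9). In 5 of 6 KO livers it was above every WT liver. It rose 3.09-fold (log2 difference 1.63, SE 0.333, limma adjusted p = 0.0186), on 98 reads in WT and 310 in KO, and its adjusted p was 0.0501 without KO 4. Bdnf, the ligand of TrkB, had 13.9 ± 4.89 in WT and 14.8 ± 3.37 in KO (limma adjusted p = 0.807). Ntf5, a further TrkB ligand, had a mean under the filter, with 15 reads in WT and 6 in KO.

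Of Ntrk3, Ngfr, Sort1 and Sorcs2, further neurotrophin receptor genes, none passed the threshold. Ntrk3, which encodes TrkC, had 22.0 ± 4.74 in WT and 17.2 ± 3.07 normalized counts in KO (limma adjusted p = 0.361). Ngfr, which encodes the p75 co-receptor, had 177 ± 43.2 and 135 ± 61.5 (adjusted p = 0.308), and the sorting receptor gene Sort1 had 583 ± 110 and 550 ± 105 (adjusted p = 0.796). Sorcs2, of the same sorting receptor family, had 14.4 ± 4.11 and 15.1 ± 4.84 (adjusted p = 0.939). Over all tested genes 1.75% were called higher, and with so few ligands and receptors nothing is read from how many passed.

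Of 19 tested genes for adaptors and kinases that relay Trk signals, 1 fell and none rose, with a median log2 difference of 0.01. Over all tested genes 2.68% were called lower and 1.75% higher, so counts of this size, here and among the receptor kinases, are near the background. That gene was Sos1, which loads Ras with GTP, at 926 ± 79.1 in WT and 702 ± 55.2 in KO (log2 difference −0.40, limma adjusted p = 0.00973). With the run as a block its adjusted p was 0.0705. Of 38 other receptor tyrosine kinase genes tested, 2 rose and 1 fell, again with a median of 0.01. Mst1r, the receptor of macrophage stimulating protein, lay between 31.9 and 61.0 in WT and between 72.3 and 127 in KO. These ranges did not overlap, as held with KO higher for 1.3% of all tested genes, and it rose 2.23-fold (limma adjusted p = 0.00442). Fgfr3, a fibroblast growth factor receptor, fell 1.90-fold from 1089 ± 232 to 569 ± 116 (limma adjusted p = 0.00779; 0.0807 with the run as a block). Ephb4, an ephrin receptor, rose 1.29-fold (limma adjusted p = 0.0463), a call that was lost in 14 of 22 alternatives, where its adjusted p reached 0.104.

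None of the 3 other nicotinic subunit genes tested passed the threshold. Chrnb2, the usual partner subunit, had 40.2 ± 6.06 in WT and 51.6 ± 11.0 normalized counts in KO (log2 difference 0.34, limma adjusted p = 0.237). Chrna2, another neuronal alpha subunit, had 65.9 ± 31.0 and 101 ± 45.1 (adjusted p = 0.322), and Chrnb1, a subunit of the muscle receptor, had 23.9 ± 4.19 and 17.3 ± 3.82 (adjusted p = 0.183). Chrne and Chrna10 were under the filter, and 10 of the 16 subunits listed have no row used here. Among 4 tested genes for assembly and modulation of nicotinic receptors 1 fell and none rose. Over all tested genes 2.68% were called lower and 1.75% higher, and nothing is read from counts in a list this short. Ly6e, a membrane-anchored protein of the Ly6 family whose members include modulators of these receptors, lay between 8209 and 10613 in WT and between 4058 and 7574 in KO. Every KO liver was below every WT liver for Ly6e, as held for 1.66% of all tested genes. It fell 1.76-fold (log2 difference −0.82, SE 0.140, limma adjusted p = 0.00706), and with the run as a block its adjusted p was 0.0593. Lynx1, a Ly6 protein that restrains neuronal nicotinic receptors, had 45.5 ± 11.1 and 28.3 ± 11.2 (adjusted p = 0.120; 0.0497 without KO 6), and Ric3, a chaperone of nicotinic receptors, had 15.3 ± 4.88 and 25.1 ± 6.10 (adjusted p = 0.0990). The acetylcholine-cleaving enzyme genes Ache and Bche, the tested genes of the acetylcholine list, did not pass.

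Of 9 other ligand-gated channel genes tested, 1 rose and 1 fell, with a median log2 difference of 0.02. Against 2.68% of all tested genes called lower, 1.75% higher and 2.96% without overlap, counts of 1 in a list this short are not read as a result about it. Gabra3, a subunit of the GABA-gated chloride channel, fell 1.62-fold from 101 ± 10.8 to 63.0 ± 11.6 normalized counts, with no overlap (limma adjusted p = 0.0171; 0.0848 with the run as a block). Grik5 rose 1.54-fold from 271 ± 47.6 to 421 ± 86.2, also with no overlap (limma adjusted p = 0.0342). Its call was lost without any one of KO 1, KO 4, KO 5 and WT 1 to WT 5, with an adjusted p of up to 0.0803.

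**Figure D3:**
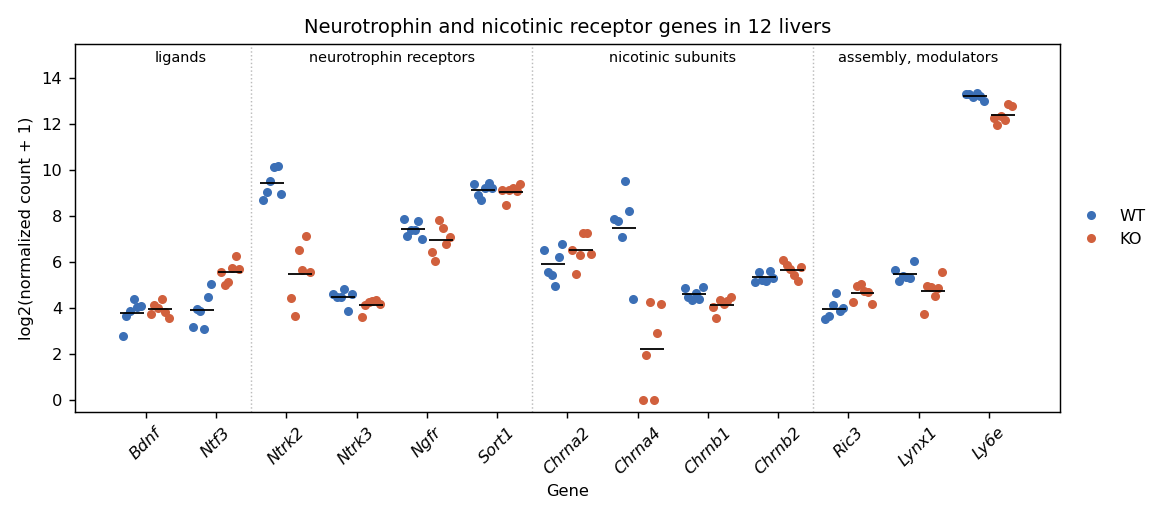
Neurotrophin ligands, neurotrophin receptors, nicotinic subunits and genes for assembly and modulation, as log2(normalized count + 1) in 12 livers; each point is a liver and each bar a genotype mean. Ntf3 was higher and Ly6e lower in KO, and the other genes shown beside Ntrk2 and Chrna4 did not pass the threshold.

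Markers of nerve tissue were near 0 in these livers. Of 20 neuron markers 7 have no row used here, among them Elavl3, Elavl4 and Th, and 5 were tested, none of which was called. Snap25, a synaptic protein, reached at most 1.98 normalized counts in any liver and Stmn2 at most 5.95. The summed neuron markers lay between 325 and 420 in WT and between 213 and 427 in KO, and most of that sum was Syt1 (122 to 350). Schwann cell and glia markers summed to 340 to 515 in WT and 314 to 438 in KO, with none of 7 called and Sox10 at most 2.55. None of the 12 hepatocyte, 7 cholangiocyte, 12 stellate cell, 10 endothelial and 7 Kupffer cell markers tested was called either. Without a call, 10 stellate cell and 8 endothelial markers were lower in KO and 2 of each higher (median log2 differences −0.13 and −0.22). Stellate cell markers summed to 19169 to 24425 in WT and 13909 to 22669 in KO. Endothelial markers summed to 9375 to 15528 and 6653 to 13931. Alb measured at least 2229510 in every liver. In bulk RNA, fewer cells that hold a transcript and less of it per cell cannot be told apart, and which liver cells hold Ntrk2 or Chrna4 was not measured.

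The genes whose pattern over the 6 WT livers was most like Ntrk2 were sought among 11065 genes with a WT mean of at least 50, by Pearson's r on log2(normalized count + 1). The 12 highest r lay between 0.970 and 0.990. In order they were Slco2b1, an organic anion uptake carrier, Pds5b, a cohesin regulator, Cers2, a ceramide synthase, Tbcd, a tubulin folding cofactor, Homer1, a scaffold of postsynaptic receptors, Mblac2, Fdx1l, Noc2l, Nptx1, a neuronal pentraxin, Coq10b, Lman1, a cargo receptor, and Nthl1, a DNA repair glycosylase. The 6 most opposite were the exonuclease gene Trex1 (−0.98), Paxbp1, Cpne2, the DNA methyltransferase gene Dnmt3a, R3hdm1 and the tetraspanin gene Cd63 (−0.97). Over these 18 genes rho was at least 0.89 in size and r without WT 4 and WT 5 at least 0.88. No r passed adjustment over the tested genes (smallest exact permutation p = 0.00139, the smallest that 6 livers allow, adjusted 0.912), so the genes are a ranking and not a finding of linkage. The 100 genes most like Ntrk2 had a median r of 0.16 in the KO livers, where 61 of them had a positive r.

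For Chrna4 the 12 highest r lay between 0.974 and 0.995. Pgd, of the pentose phosphate pathway, led with 0.995, followed by Banf1, a chromatin-binding protein, Pdhb, a pyruvate dehydrogenase subunit, Fbxo28, Utp6 and Me1, the NADPH-making malic enzyme (0.985). Next came Sec14l4, Pygb, a glycogen phosphorylase, Tubb2a, a tubulin, Psmb5, a proteasome subunit, Cyth1 and Agpat2, an acyltransferase of triglyceride synthesis. The 6 most opposite were Timp2 (−0.997), an inhibitor of matrix proteases, Sema3c, Eln, which encodes elastin (−0.99), D15Ertd621e, Mgp, a matrix protein, and Usp48. Without WT 4 and WT 6, the livers farthest from the Chrna4 median, r dropped in size to 0.46 for Mgp, 0.53 for Psmb5 and 0.54 for Cyth1, so these rest on those livers, and it stayed at 0.69 or more in size for the other 15. Again none passed adjustment (smallest exact permutation p = 0.00139, adjusted 0.438). In the KO livers Timp2 and Eln, opposite in WT, had r of 0.89 and 0.87 with Chrna4, and Me1 had 0.80; the difference between genotypes was not tested. The 100 genes most like Chrna4 had a median r of 0.34 in KO, with 73 positive.

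Several of these genes also differed between the genotypes, a contrast that shares its WT livers with the ranking. Of the 11065 candidates 2.94% were called lower in KO. Among the 100 most like Ntrk2, 8 were called lower and none higher (median log2 difference −0.07), and among the 100 most like Chrna4, 18 were lower and 1 higher (median −0.25), against a median of 0.0037 over all candidates. Slco2b1 fell 3.08-fold from 3406 ± 621 to 1251 ± 663 normalized counts (limma adjusted p = 0.0165; 0.0678 with the run as a block). Homer1 fell from 196 ± 16.8 to 149 ± 14.1 (limma adjusted p = 0.0268), and 6 of 22 alternatives ended this call (up to 0.0609 without 1 liver). Cd63, opposite to Ntrk2 in WT, rose 2.18-fold from 446 ± 72.2 to 968 ± 103 (limma adjusted p = 0.000353). Me1 fell 4.60-fold from 3319 ± 1157 to 733 ± 295 (limma adjusted p = 0.00181). Pdhb fell 1.49-fold (limma adjusted p = 0.00700), Pgd 1.90-fold (0.0244) and Banf1 1.20-fold (0.0228), and these 3 calls ended with the run as a block (0.0613, 0.109 and 0.103).

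Lists of liver programmes were then set beside each gene, by the median r of a list's genes and by the list's mean score, the log2 difference of each gene from its WT mean averaged over the list. There were 20 lists with at least 5 tested genes, giving 40 relations per genotype, and no score relation passed adjustment over them. Among WT livers sterol synthesis genes had the highest median r with Ntrk2, 0.79 with all 20 positive, and lipogenic genes the highest with Chrna4, 0.90 with all 18 positive. Over all tested genes the median r was 0.001 and 0.005. The lowest medians were −0.42 for Ntrk2 with fetal liver genes and −0.54 for Chrna4 with fasting and fatty acid oxidation genes.

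**Figure D4:**
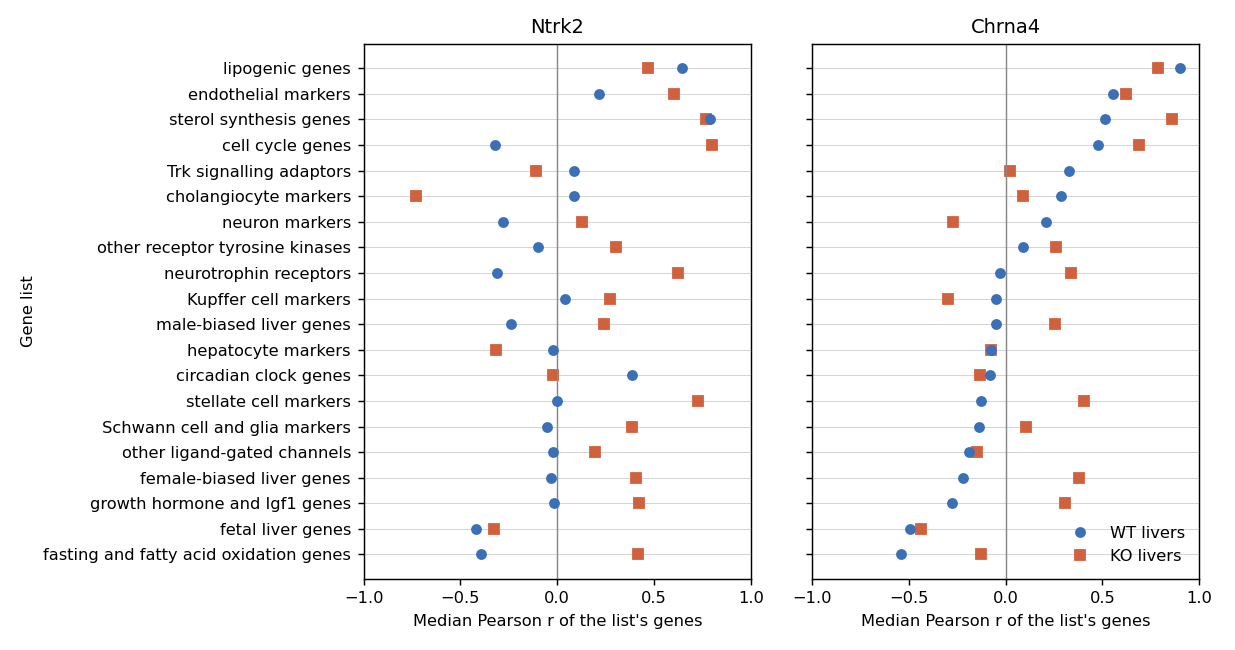
Median Pearson r of each list's genes with Ntrk2 (left) and Chrna4 (right) over the 6 WT livers (circles) and the 6 KO livers (squares), for 20 lists ordered by Chrna4 in WT. Sterol synthesis genes stood highest for Ntrk2 in WT (0.79) and lipogenic genes for Chrna4 in WT (0.90).

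Ntrk2 followed the sterol synthesis score closely among WT livers. WT 4 (score 0.32) and WT 5 (0.28) had both the highest scores and the most Ntrk2, and WT 1 (−0.27) and WT 6 (−0.26) had the lowest scores and the least Ntrk2. The r of the score was 0.98 (exact permutation p = 0.00278, adjusted 0.111) and rho was 0.94 (exact permutation p = 0.0167, adjusted 0.583). Without WT 4 and WT 5 r was 0.91, and without any 1 liver it was 0.97 to 0.99. Among the list's leading genes were Lss, lanosterol synthase (0.90), and Fdps, farnesyl diphosphate synthase (0.88). With the lipogenic score the r of Ntrk2 was 0.62 (exact permutation p = 0.186, adjusted 0.674) and rho 0.83 (exact permutation p = 0.0583, adjusted 0.583), and r was 0.93 without WT 4 and WT 6.

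Among KO livers the sterol score fell into separate clusters, so no pooled r is given. KO 1, KO 2 and KO 4 had scores of −2.57, −2.70 and −2.37, and KO 3, KO 5 and KO 6 had −0.12, 0.01 and 0.31. In KO 3, KO 5 and KO 6, whose sterol scores lay within the WT range, Ntrk2 measured 91.0, 142 and 46.6 normalized counts. The WT lowest was 418.6, but the fall in KO chose Ntrk2, so nothing is read from that gap. Whether sterol state bears on the fall was not tested. Ntrk2 in KO 6 was below that in KO 4 (50.1), a liver of the low cluster. The list as a whole had 0 of 20 genes called in KO (all 20 lower, median −1.17).

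Chrna4 followed the lipogenic score among WT livers, and this rested on its outermost livers. WT 4 had the highest score (0.61) and the most Chrna4, WT 6 the lowest score (−1.004) and the least, and the other 4 livers had scores between −0.02 and 0.21. The r was 0.98 (exact permutation p = 0.0125, adjusted 0.25) and rho 0.83 (exact permutation p = 0.0583, adjusted 0.583), and without WT 4 and WT 6 r was 0.27. The leading genes were Me1 (0.98), the acetyl-CoA synthetase gene Acss2 (0.97) and Acacb (0.97). With the sterol score the r of Chrna4 was 0.69 (exact permutation p = 0.111, adjusted 0.519) and rho 0.60 (exact permutation p = 0.242, adjusted 0.892), and r was 0.37 without WT 4 and WT 5.

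Among KO livers the lowest lipogenic scores were those of KO 2 (−2.68), KO 1 (−2.53) and KO 4 (−2.50), the livers with the fewest Chrna4 reads (3, 0 and 0). KO 6 had the highest score (−0.87), next to that of WT 6, and its Chrna4 level (17.4) was near that of WT 6 (20.0). KO 3 had slightly more Chrna4 (18.7) than KO 6 at a lower score (−1.43). The r was 0.85 (exact permutation p = 0.0417, adjusted 0.424) and rho 0.75 (exact permutation p = 0.106, adjusted 0.489), and r was 0.62 without KO 3 and KO 6. Of the 18 lipogenic genes 15 were called lower in KO and none higher, with a median log2 difference of −1.85, against 2.68% of all tested genes called lower. Me1 and Acacb kept their calls in all 22 alternatives, and Acss2 lost its call in 4. KO 1 and KO 4, with no Chrna4 read, were also the shallowest KO libraries, and KO 3, with 22 reads, was the deepest (31296485 reads). Across KO livers the r of Chrna4 with library reads was 0.87 (exact permutation p = 0.0361, adjusted 0.144 over 4 relations) and rho 0.81 (exact permutation p = 0.0722, adjusted 0.289). Without KO 1 and KO 4 it was 0.36, so it rests on those livers. Across WT livers it was −0.61 (exact permutation p = 0.214, adjusted 0.428).

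**Figure D5:**
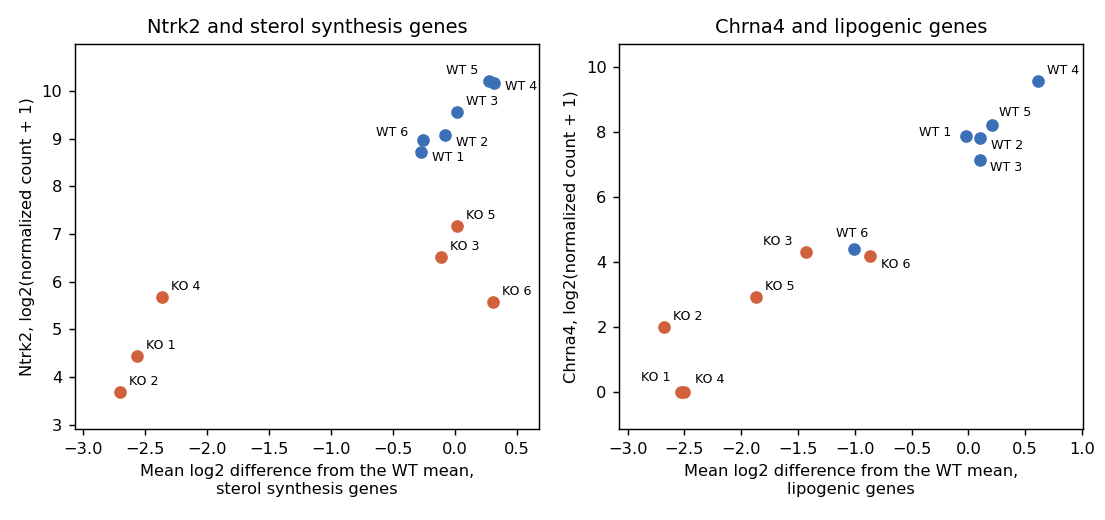
Ntrk2 against the mean score of sterol synthesis genes (left) and Chrna4 against that of lipogenic genes (right), both axes on log2 scales, with each of the 12 livers named (WT blue, KO red). KO 3, KO 5 and KO 6 have sterol scores within the WT range. All KO livers have less Ntrk2 than any WT liver, the difference that chose the gene. WT 6 lies beside KO 6 for Chrna4.

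Lists of cell type markers and of cell division genes were set beside the genes in the same way, and none of their relations passed adjustment. Among WT livers the median r of the 10 endothelial markers with Chrna4 was 0.55. WT 6, lowest in Chrna4, was lowest in their sum (9375 of a WT range to 15528). The r of their score was 0.59 (exact permutation p = 0.228, adjusted 0.674) and rho −0.086 (exact permutation p = 0.919, adjusted 0.968). Without WT 6 the r turned to −0.83, and without WT 3 and WT 6 it was −0.73, so its sign rested on WT 6.

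For Ntrk2 the neuron marker score had a negative r among WT livers. It was −0.89 (exact permutation p = 0.0278, adjusted 0.278), with a rho of −0.89 (exact permutation p = 0.0333, adjusted 0.583) and an r of −0.75 without WT 1 and WT 5. Among KO livers that r was −0.21 (exact permutation p = 0.704, adjusted 0.782). The cholangiocyte marker score had an r with Ntrk2 of −0.86 among KO livers (exact permutation p = 0.0167, adjusted 0.424), with none of the 7 genes positive and a median r of −0.73. Its rho was −0.94 (exact permutation p = 0.0167, adjusted 0.489), and r was −0.63 without KO 2 and KO 5. KO 2 had the highest cholangiocyte sum of any liver (2941 normalized counts) and the least Ntrk2. Among WT livers the r with this score was −0.20 (exact permutation p = 0.704, adjusted 0.999).

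The 18 cell cycle genes had a median r with Ntrk2 of −0.32 in WT and 0.80 in KO. In KO the r of their score was 0.83 (exact permutation p = 0.0486, adjusted 0.424) and rho 0.71 (exact permutation p = 0.136, adjusted 0.489), but r was 0.14 without KO 1 and KO 2. Differences in these relations between the genotypes were not tested.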

How the data were processed

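Per the file headers, the deposited signal is the normalized count of each gene, which the authors made by dividing reads by a factor specific to each library; 100% of values came to whole reads within 0.001 of a read. The submitters' processing notes list mm10, FastQC, STAR, featureCounts and DESeq2; the sources used here give no version, annotation or strand setting. The authors' deposited comparison holds a log2 fold change, p-value and adjusted p-value per gene. Livers were grouped by the labelled genotype. The genes and lists were chosen with earlier results of these data known.

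Genes averaging at least 10 over the 12 livers were fitted with limma 3.58.1 (R 4.3.3) on log2(normalized count + 1), with genotype alone and a trended variance. P-values were two-sided, with Benjamini-Hochberg adjustment and a threshold of 0.05. Correlations used all pairings of 6 livers, two-sided. Named genes were tested genes of the ligand, receptor and subunit lists, those past the threshold in the related lists, the 12 most and 6 least alike each receptor gene over WT livers, and leading genes of the outermost lists; some genes that these rules name are not reported here. Gm and Rik symbols, pseudogenes and the 508 rows equal to an earlier one were left out of the ranking. Lynx1, Ric3, Ache and Bche, the cell type markers, and the genes next to either receptor in the order of falls are given as values. Csf1r, Fgfr2, Kit and P2rx4 were named after their values were seen. Alternatives were other pseudocounts, filters and scalings, the recovered reads tested with DESeq2 1.42.0 or edgeR 4.0.16, runs of animal numbers (a gap of 10 starts a run) as a block, and leaving out each liver; leaving out WT 6 and KO 2 together was chosen after seeing the data. Scripts were tested on simulated data. GENCODE M21 (GRCm38) gave positions and exon lengths, and RefSeq (GRCm38.p6) the promoters.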

Additional observations from a re-analysis of the deposited data

Results flagged for a closer look

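Within a genotype, the highest or lowest liver stood apart from the other 5 for 7 of 118 groups of 6 values examined, by the 95% critical value of Dixon's ratio of gap to range on the log2 scale. Chance flags about 1 in 20 groups. Neither Ntrk2 nor Chrna4 was among them. Ntrk3 was lowest in KO 1 at 11.4 normalized counts, against 16.8 to 19.8 in the other KO livers, and Sort1 was lowest in KO 2 at 356, against 546 to 672. Of genes ranked by their likeness to Ntrk2, R3hdm1 was highest in KO 2 at 770, against 574 to 635. The other 4 were genes ranked by their likeness to Chrna4 and stood apart in WT 6, the WT liver with the least Chrna4. There Fbxo28 was lowest at 338 (391 to 421 in the other WT livers), Pygb lowest at 495 (592 to 655), D15Ertd621e highest at 2564 (2020 to 2170) and Mgp highest at 531 (91.8 to 168). These genes were ranked on the same WT livers, so their gaps in WT 6 are no separate result.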

How the results depend on the processing

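The count of genes called between KO and WT, 601 with limma, was 1323 with DESeq2 on the recovered reads, 158 with the run of animal numbers as a block and 917 without WT 6 and KO 2 together. Leaving out 1 liver gave 224 (KO 4 left out) to 933 (WT 6 left out). It was 259 when KO 1 and 908 when KO 6 was left out, and 263, 299, 236, 339 and 267 when WT 1 to WT 5 were left out in turn. With edgeR it was 556. The log2 differences of Ntrk2 and Chrna4 moved by less than 1 SD between livers in the 22 alternatives run for each, and the r of the genes with each other and with the sterol and lipogenic scores kept its sign, with no adjusted p for a score passing. The 36 genes ranked as most or least alike kept the sign of r in 396 values, the smallest 0.83 in size (Utp6, by rank). They were picked as the extremes of r over the same WT livers, and at most 1 liver was left out, so this is no separate result. Values near 0 changed sign for Bdnf (−0.065 when WT 1 was left out to 0.26, and −0.027 with the block) and for Sort1 (−0.18 to 0.033, above 0 when KO 2 was left out, and 0.046 without WT 6 and KO 2), neither of them called; the cause was not tested. No paired analysis was possible because the labels give animal numbers and no replicate numbers shared between genotypes; the block used runs of neighbouring numbers. Depth limits Chrna4 in KO, which rests on 51 reads. Counting intervals cover counting error only, and correlations rest on 6 livers each.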
